A study of Mus musculus with 20 samples.

Results

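The genes described here mark the 2 classes of striatal medium spiny neuron, the projection neurons that make up most of the striatum. They were chosen by symbol: Isl1, Sfxn1, Eya1 and Chrm4 for the direct pathway, and Adora2a, Gpr6, Sp9 and Gpr52 for the indirect pathway. Of the 8 names, 7 had a row among the 39179 genes counted in each mouse, and Gpr52 was not analysed here. All 7 passed the filter on low counts (3 or more mice above 1 CPM, the count scaled to library size), as did 14792 genes in all.

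RNA was sequenced from the whole bilateral striatum of 20 male mice, 5 in each of 4 groups, formed by 2 lines (Control and High-Active) and 2 treatments (saline and amphetamine). High-Active mice came from generation 17 of selective breeding for home cage activity, Control mice from the same generation bred without that selection, and both lines descended from an intercross of 8 inbred strains. The mice were about 6.5 months old and received saline or 0.25 mg/kg d-amphetamine, a drug that releases dopamine, 2 hours before the tissue was taken. There was 1 High-Active and 1 Control line, so selection and drift between lines cannot be told apart. By their recorded parents, the 10 Control mice came from 8 families and the 10 High-Active mice from 5 families, and 4 Control and 9 High-Active mice shared their parents with another mouse of the study. Likeness within families would make p-values between lines that treat the mice as independent too small. As 6 families (13 mice) held both treatments, this direction is not claimed for amphetamine or the interaction. The methods of the study instead describe every animal as coming from its own family, and the labels and methods were not reconciled here. Libraries held 32388971 to 53710713 counts on genes (median 41703854).

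Direct pathway neurons carry dopamine D1 receptors, project to the substantia nigra pars reticulata and internal pallidum, and promote movement when active. Indirect pathway neurons carry dopamine D2 receptors, project to the external pallidum and restrain movement. Dopamine raises cAMP signalling through D1 receptors and lowers it through D2 receptors, so the classes respond to amphetamine in opposite ways, and the balance between them is a classical frame for locomotor activity.

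Among the direct pathway members, Chrm4 (chr2:91927249-91928688, plus strand) encodes the M4 muscarinic receptor, a Gi-coupled receptor for acetylcholine. Isl1 (chr13:116298281-116309689, minus strand) encodes a LIM homeodomain factor needed for the development of direct pathway neurons, and is also a factor of striatal cholinergic interneurons. Eya1 (chr1:14168954-14310235, minus strand) encodes a transcriptional coactivator with phosphatase activity, and Sfxn1 (chr13:54071869-54108342, plus strand) a mitochondrial serine transporter. Among the indirect pathway members, Adora2a (chr10:75316877-75334784, plus strand) encodes the Gs-coupled adenosine receptor of these neurons, Gpr6 (chr10:41069977-41072285, minus strand) an orphan Gs-coupled receptor, and Sp9 (chr2:73271925-73284706, plus strand) a zinc finger factor needed for indirect pathway neurons to form. These spans are GRCm38 gene models, and all 7 genes are protein coding. An exon of Sp9 overlaps an exon of Cir1 on the other strand, and the strand setting of the counting is not given in the sources used here, so the Sp9 counts may include Cir1 reads.

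RefSeq upstream sequences (GRCm38.p6) covered 5 of the 7 genes: Isl1, Sfxn1, Chrm4, Gpr6 and Sp9. The 250 bases before the transcript start are shown 5′ to 3′ on the gene's strand for Chrm4 and Gpr6, markers of opposite pathways whose levels moved together between mice, and for Isl1, the member with the smallest p under amphetamine. Capitals mark the letters TGACG on either strand, the core of the cAMP response element TGACGTCA, at which factors of cAMP signalling can bind.
Chrm4, chr2:91921939-91922188, plus strand: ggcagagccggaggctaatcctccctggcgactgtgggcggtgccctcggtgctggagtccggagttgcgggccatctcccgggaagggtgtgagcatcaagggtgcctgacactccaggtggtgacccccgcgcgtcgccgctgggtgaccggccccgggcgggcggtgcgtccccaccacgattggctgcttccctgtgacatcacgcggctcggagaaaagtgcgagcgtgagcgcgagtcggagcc
Gpr6, chr10:41072291-41072540, minus strand: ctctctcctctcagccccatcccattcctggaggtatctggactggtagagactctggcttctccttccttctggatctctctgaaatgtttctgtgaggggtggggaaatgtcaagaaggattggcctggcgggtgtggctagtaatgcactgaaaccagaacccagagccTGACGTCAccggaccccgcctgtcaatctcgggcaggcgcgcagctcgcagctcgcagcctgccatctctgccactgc
Isl1, chr13:116309689-116309938, minus strand: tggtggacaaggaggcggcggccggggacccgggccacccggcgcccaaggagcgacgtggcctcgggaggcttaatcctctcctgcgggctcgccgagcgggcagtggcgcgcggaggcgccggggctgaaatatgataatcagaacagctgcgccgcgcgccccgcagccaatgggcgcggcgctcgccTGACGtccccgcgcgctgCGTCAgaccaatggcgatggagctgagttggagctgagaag
The complete element, in which the core letters of both strands overlap, was in the Gpr6 window, where the core matches begin 78 and 75 bases before the start. Isl1 held 2 separate core matches, 59 and 41 bases before the start, and the Chrm4, Sfxn1 and Sp9 windows held none. Of all 32851 upstream windows, 1.55% held the complete element and 17.8% a core match. A match describes the letters only.

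The 3 G protein-coupled receptors were the abundant members. Adora2a averaged 80.0 ± 11.1 RPKM, the read count scaled by library size and exon length (SD over 20 mice), Chrm4 51.3 ± 7.95 and Gpr6 37.6 ± 5.09. The other members were several-fold lower, with Sfxn1 at 6.75 ± 0.535 RPKM, Sp9 at 4.18 ± 0.494, Isl1 at 3.93 ± 0.891 and Eya1 at 1.33 ± 0.225. Each gene was above the next in this order in 20 of 20 mice, except Sp9 against Isl1 (13 of 20 mice), whose levels did not separate beyond their spread. RPKM used exon lengths of a later annotation than the counting did, and the Chrm4 model of 1440 bases is coding sequence alone, so its rank rests on that model.

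**Figure D1:**
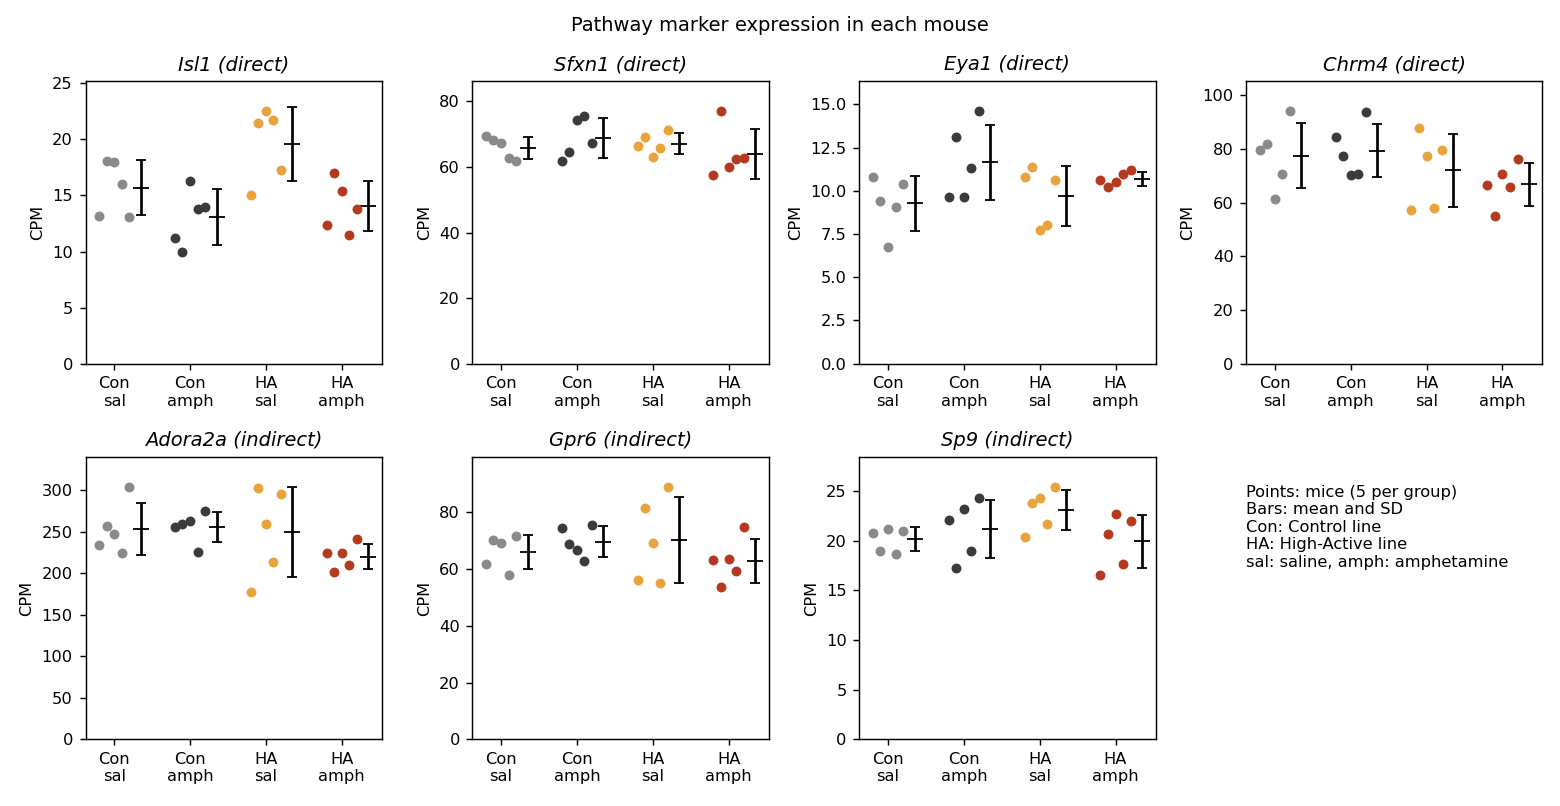
Expression of the 7 markers in CPM (vertical axes, from 0) in each of 20 mice, by group (horizontal axes), with points for mice and bars for mean and SD. Isl1 was highest on average in High-Active saline mice (19.6 CPM), and no gene has a pair of groups of 1 line or 1 treatment that do not overlap.

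None of the 7 members passed the test between the lines. In the comparison of High-Active with Control mice over both treatments, 0 of 7 members passed an adjusted p of 0.1 (edgeR's quasi-likelihood test, Benjamini-Hochberg over all genes), where 14.5% of all genes did. At an unadjusted p of 0.05 it was 0 of the 7 members and 26.1% of all genes. DESeq2 and edgeR's likelihood-ratio test also called 0 members, where they called 16.3% and 15.3% of the genes they tested. The log2 differences ran from -0.18 to 0.21, with 5 below 0 and 2 above; 50.3% of all genes were below 0.

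The Chrm4 level in Control saline mice was 79.5, 81.8, 61.5, 70.7 and 94.0 CPM, and in High-Active saline mice 57.2, 87.9, 77.3, 57.9 and 79.6 CPM. Under amphetamine it was 84.6, 77.4, 70.3, 70.8 and 93.8 CPM in Control mice and 66.4, 54.9, 70.5, 65.7 and 76.3 CPM in High-Active mice. The lines overlapped under both treatments, with 2 High-Active saline mice below all Control saline mice and 3 High-Active amphetamine mice below all Control amphetamine mice. Over both treatments Chrm4 differed between lines by a log2 of -0.18 (SE 0.091, 95% interval -0.37 to 0.014, adjusted p = 0.227 by edgeR). The difference was -0.11 in saline mice (SE 0.13, adjusted p = 0.714) and -0.25 in amphetamine mice (SE 0.13, adjusted p = 0.436).

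Adora2a, the best known indirect pathway marker of the set, lay at 234, 257, 247, 225 and 304 CPM in Control saline mice. High-Active saline mice spread most widely, at 177, 303, 260, 214 and 296 CPM. Control amphetamine mice were at 256, 260, 263, 226 and 275 CPM, and High-Active amphetamine mice at 224, 202, 224, 210 and 241 CPM. In the last pair 4 High-Active mice were under the lowest Control value, and 2 were so among saline mice. The line difference did not pass in amphetamine mice (log2 -0.22, SE 0.12, adjusted p = 0.453 by edgeR) or in saline mice (-0.020, SE 0.12, adjusted p = 0.95). Over both treatments the log2 difference was -0.12 (SE 0.083, 95% interval -0.29 to 0.055, adjusted p = 0.386 by edgeR).

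Averaged over both treatments, Sfxn1, Gpr6, Sp9 and Eya1 had the smallest differences. For Sfxn1 the log2 difference was -0.039 (95% interval -0.14 to 0.066), for Gpr6 -0.030 (-0.20 to 0.14), for Sp9 0.055 (-0.091 to 0.20) and for Eya1 -0.028 (-0.23 to 0.18). Isl1 had the highest value, 0.21 (-0.0066 to 0.43, adjusted p = 0.206 by edgeR). Split by treatment, 0 of 7 members passed in saline mice, against 3.74% of all genes, and 0 of 7 in amphetamine mice, against 1.3% of all genes. At an unadjusted p of 0.05, 1 member passed in saline mice (17.4% of genes) and 0 in amphetamine mice (12.6% of genes). The 1 was Isl1, at a log2 of 0.32 (SE 0.15, adjusted p = 0.264 by edgeR). Sp9 had 0.20 in saline mice (SE 0.099, adjusted p = 0.303), with 4 of 5 High-Active mice above all Control mice, and -0.090 in amphetamine mice (SE 0.099, adjusted p = 0.73), and Gpr6 had 0.088 and -0.15 (adjusted p = 0.74 and 0.609), so their averages join values of opposite sign.

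**Figure D2:**
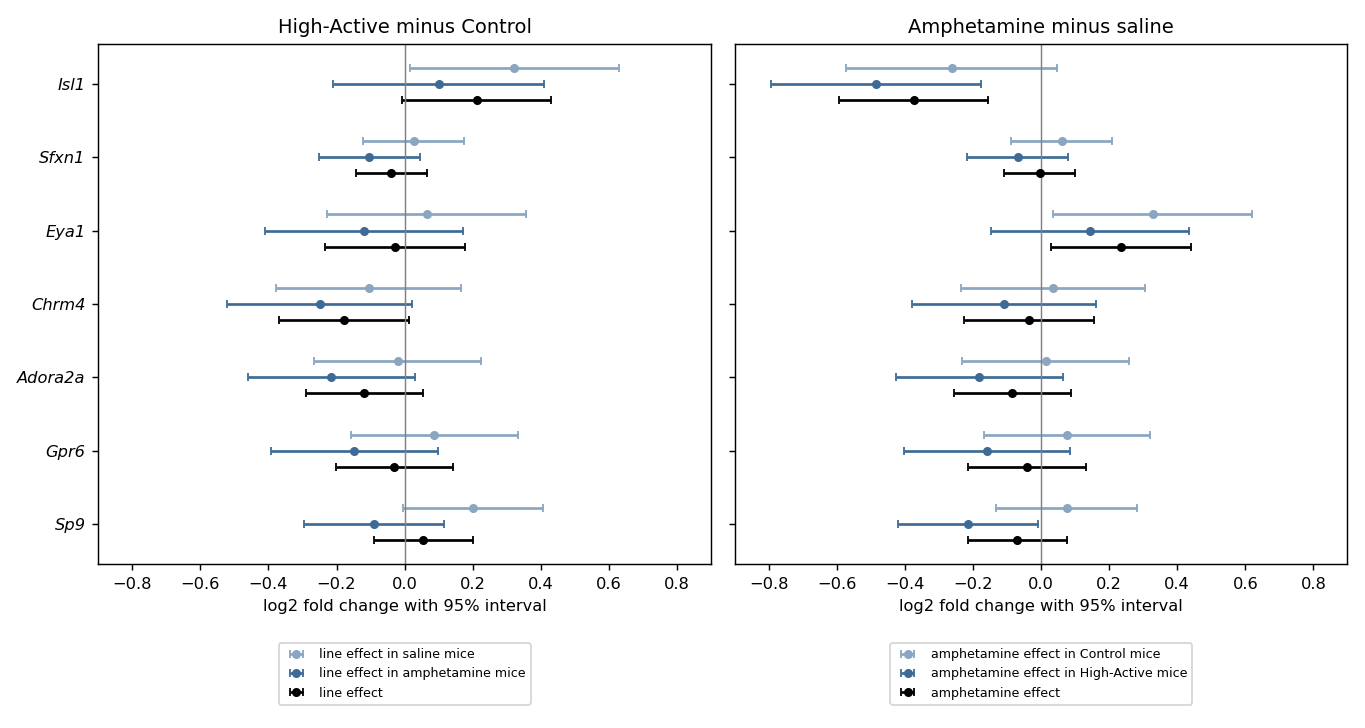
Log2 fold changes (horizontal axes) of the 7 markers with 95% intervals from edgeR's quasi-likelihood test, for High-Active minus Control mice (left) and amphetamine minus saline (right), over both levels of the other factor (black) and within each (blue). Only the Isl1 and Eya1 intervals of the black set lie off 0, both under amphetamine.

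Amphetamine gave its smallest p among the members for Isl1. Its level was 13.2, 18.1, 18.0, 16.0 and 13.1 CPM in Control saline mice and 11.2, 9.96, 16.3, 13.8 and 14.0 CPM in Control amphetamine mice. High-Active saline mice held 15.0, 21.5, 22.5, 21.7 and 17.3 CPM and High-Active amphetamine mice 12.4, 17.0, 15.4, 11.5 and 13.8 CPM. The treated mice were lower on average in both lines, with 2 Control and 3 High-Active treated mice below every saline mouse of their line, and the groups overlapped. Over both lines the log2 difference was -0.37 (SE 0.10, 95% interval -0.59 to -0.16, adjusted p = 0.204 by edgeR), or 22.9% less, which is not past the threshold.

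Across the 7 members, 0 passed for amphetamine, as did 0% of all genes, while 1844 genes (12.5%) and 2 members, Isl1 and Eya1, had an unadjusted p below 0.05. DESeq2 called 1 of the 7 and 394 genes in all, and edgeR's likelihood-ratio test with robust dispersions 1 of the 7 and 458 genes. Both calls were Isl1, with adjusted p = 0.0535 and 0.0241. Leaving out High-Active amphetamine mouse 415, the highest Isl1 value of its group, also put Isl1 past the threshold (log2 -0.41, adjusted p = 0.0768 by edgeR's quasi-likelihood test), and 339 genes in all. In the 6 families with mice under both treatments, Isl1 was lower with amphetamine in 5, with log2 differences from -0.94 to 0.30. Chrm4 was lower in 5 as well, Gpr6, Sfxn1 and Sp9 in 4 and Adora2a in 3, so this count does not set Isl1 apart. In Control mice alone the Isl1 difference was -0.26 (SE 0.15, adjusted p = 0.795) and in High-Active mice -0.49 (SE 0.15, adjusted p = 0.359), both by edgeR.

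Eya1 went the other way. It lay between 6.73 and 10.8 CPM in Control saline mice and between 9.65 and 14.6 CPM in Control amphetamine mice, where 3 treated mice exceeded all saline mice. High-Active mice spanned 7.71 to 11.4 CPM under saline and 10.2 to 11.3 CPM under amphetamine, the second range inside the first. The log2 difference over both lines was 0.24 (SE 0.098, adjusted p = 0.341 by edgeR), and 3 of the 6 families with both treatments were higher.

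Among the other 5 members the amphetamine difference was -0.084 on the log2 scale for Adora2a (95% interval -0.26 to 0.089), -0.070 for Sp9 (-0.22 to 0.076), -0.041 for Gpr6 (-0.21 to 0.13), -0.036 for Chrm4 (-0.23 to 0.16) and -0.0040 for Sfxn1 (-0.11 to 0.10). In 6 of 7 members the value was below 0, as in 53% of all genes. Within Control mice 0 of 7 members and 0% of genes passed (1 member, Eya1, and 940 genes, 6.35%, at an unadjusted p of 0.05). Within High-Active mice 0 of 7 and 0% of genes passed, and 2 members, Isl1 and Sp9, and 1247 genes (8.43%) reached an unadjusted p of 0.05. The likelihood-ratio test called 1 member in High-Active mice. Its count over all genes was not taken for this contrast, so that call cannot be set against a share.

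Whether amphetamine acted differently in the lines was tested as the interaction, the response of High-Active mice minus that of Control mice. Of the members 0 of 7 passed, as did 0% of all genes, and the adjusted p was 1 for each by edgeR; 0 members and 440 genes (2.97%) had an unadjusted p below 0.05, DESeq2 called 0 genes and the likelihood-ratio test 6, with no member among them. All 7 interaction values were below 0, from -0.29 (Sp9) to -0.13 (Sfxn1), as were 49.5% of all genes. Below 0 were also 11 of the 12 genes of a list shared by all medium spiny neurons (median -0.20), 6 of 6 further direct pathway genes (median -0.23) and 4 of 5 further indirect pathway genes (median -0.22), with 0 called in each. For Sp9 the 95% interval ran from -0.58 to 0.0021. Its level was 18.7 to 21.2 CPM in Control saline mice, 17.3 to 24.3 in Control amphetamine mice, 20.4 to 25.4 in High-Active saline mice and 16.5 to 22.7 in High-Active amphetamine mice. The 7 values are not independent, since Chrm4, Adora2a and Gpr6 varied together between mice.

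A balance of the pathway markers was taken in each mouse as the mean log2 CPM of the 4 direct pathway members minus that of the 3 indirect pathway members measured. Its absolute level depends on the genes and their lengths, so only differences between mice are read. It is a balance of these genes and not a measure of the 2 neuron classes. With group means subtracted, Chrm4, Adora2a and Gpr6 followed the list shared by all medium spiny neurons (Pearson r = 0.889, 0.917 and 0.917). Isl1, Sfxn1, Eya1 and Sp9 followed it less or not at all (0.0735, -0.191, 0.272 and 0.428). Control saline mice had balances of -1.17, -1.16, -1.42, -1.14 and -1.36, and Control amphetamine mice -1.45, -1.25, -1.30, -1.09 and -1.24. High-Active saline mice had -1.07, -1.26, -1.32, -1.15 and -1.45, and High-Active amphetamine mice -1.21, -1.05, -1.25, -1.17 and -1.32. The 4 groups overlapped.

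The group means of the balance were -1.25 ± 0.13 (SD, n = 5) in Control saline, -1.27 ± 0.13 in Control amphetamine, -1.25 ± 0.15 in High-Active saline and -1.20 ± 0.10 in High-Active amphetamine mice. High-Active minus Control was 0.033 (SE 0.057). Amphetamine minus saline was -0.015 (SE 0.081) in Control and 0.050 (SE 0.081) in High-Active mice, a difference between lines of 0.065 (SE 0.11). Each is below the within-group SD of 0.13. The amphetamine values depended on the genes taken: without Isl1 they were 0.088 in Control and 0.17 in High-Active mice (within-group SD 0.15), and without Eya1 -0.11 and -0.044 (SD 0.13). No p is given, since the genes were chosen with results of these data known. The underlying means moved more than their difference in High-Active mice: the direct mean was 4.94 ± 0.13 under saline and 4.82 ± 0.069 under amphetamine, and the indirect mean 6.19 ± 0.25 and 6.02 ± 0.13.

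**Figure D3:**
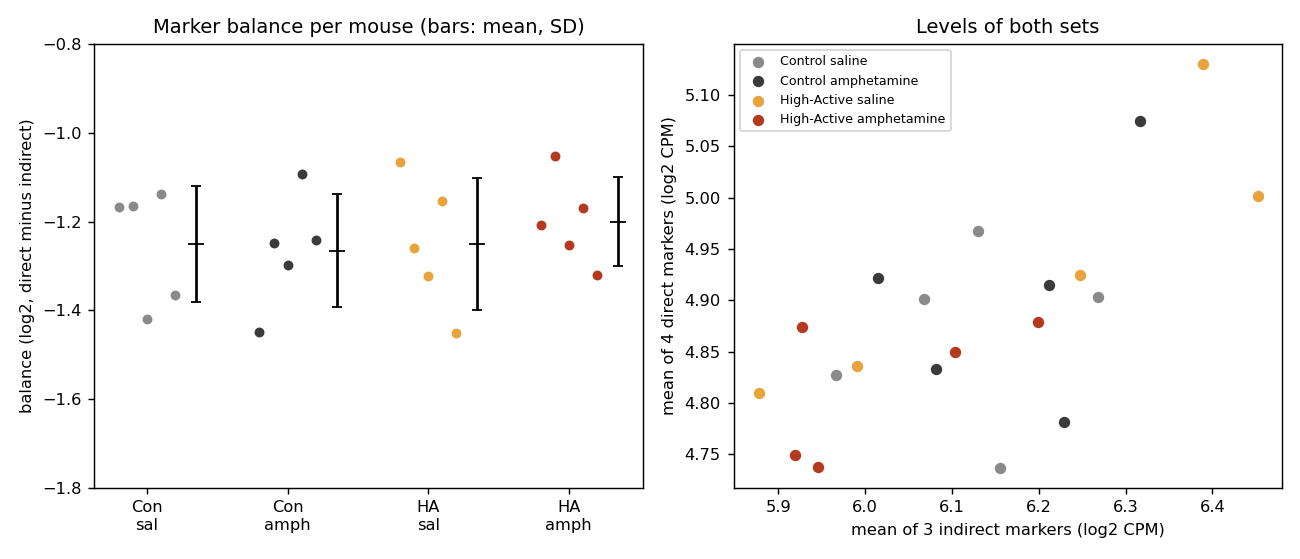
Left, the balance (mean log2 CPM of 4 direct minus 3 indirect pathway markers, vertical axis) of each mouse by group, with mean and SD. Right, the direct mean against the indirect mean in log2 CPM, with 1 point per mouse coloured by group. The 20 balances lie between -1.45 and -1.05 in overlapping groups, and mice of all groups mix in the right panel.

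None of the 5 classical markers passed between lines, where 14.5% of all genes did, or with amphetamine, where 0% did. Drd1, the D1 receptor, had a line difference of -0.17 on the log2 scale (SE 0.096, adjusted p = 0.27 by edgeR), and Drd2, the D2 receptor, -0.13 (SE 0.087, adjusted p = 0.356). The log2 ratio of Drd1 to Drd2 was 0.92 ± 0.14 (SD, n = 5) in Control saline, 0.87 ± 0.078 in Control amphetamine, 0.84 ± 0.090 in High-Active saline and 0.86 ± 0.14 in High-Active amphetamine mice. The neuropeptide genes had line differences of 0.073 for Tac1 (substance P precursor) and -0.053 for Pdyn (dynorphin) in direct pathway neurons, and -0.078 for Penk (enkephalin) in indirect pathway neurons. Their amphetamine differences were -0.20 (adjusted p = 0.352), -0.20 (adjusted p = 0.464) and -0.096 (adjusted p = 0.725) by edgeR, and those of Drd1 and Drd2 -0.057 and -0.041. A balance of Drd1, Tac1 and Pdyn against Drd2 and Penk differed by 0.052 between lines, and by -0.13 in Control and -0.046 in High-Active mice with amphetamine (within-group SD 0.13), where the members gave -0.015 and 0.050.

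With these genes included, the list of 6 further direct pathway genes had 0 called for line, amphetamine or interaction over all mice, and the list of 5 further indirect pathway genes likewise 0. Of all genes 14.5%, 0% and 0% passed in these contrasts, and 3.74% between lines in saline mice. In saline mice alone 1 direct list gene passed between lines, Zfp521, a zinc finger factor: its log2 CPM was 4.61 ± 0.099 (SD, n = 5) in Control and 4.98 ± 0.14 in High-Active mice, a difference of 0.38 (SE 0.11, adjusted p = 0.0878 by edgeR). In amphetamine mice it was -0.089 (adjusted p = 0.76), and its interaction of -0.46 (SE 0.16) had an adjusted p of 1. With the cortical list as a covariate the saline difference of Zfp521 was 0.22 (adjusted p = 0.58), and the call was also lost when any of several single mice was left out, with adjusted p from 0.0741 to 0.191 over the 20 mice. By unadjusted p below 0.05 the direct list had 1 gene each for line, amphetamine and interaction, and the indirect list 1, 1 and 0. Of all genes 26.1%, 12.5% and 2.97% were below it, so these counts are not read as a trait of the lists. The median line difference was -0.0087 for the direct and -0.13 for the indirect list, against -0.00093 over all genes, and the median amphetamine differences were -0.080 and -0.041, against -0.0067. For line, the smallest p in the lists belonged to Slc35d3 (-0.22, adjusted p = 0.184 by edgeR) and Plxdc1 (-0.30, adjusted p = 0.184), both lower in High-Active mice without passing.

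Between mice, the receptor genes of opposite pathways moved together. Of the 12 pairs that join a direct to an indirect marker, 2 had an adjusted p below 0.1, and of the 9 pairs within a pathway, 2. After each group's mean was subtracted, Chrm4 and Adora2a had Pearson r = 0.809 over 20 mice (permutation p = 0.00031, adjusted p = 0.00186) and Spearman rho = 0.811 (permutation p = 0.00063, adjusted p = 0.00331). Chrm4 and Gpr6 had r = 0.786 (permutation p = 0.00089, adjusted p = 0.00467) and rho = 0.805 (permutation p = 0.00052, adjusted p = 0.00312). Within the indirect pathway Adora2a and Gpr6 had r = 0.879 (permutation p = 6e-05, adjusted p = 0.000504) and rho = 0.871 (permutation p = 4e-05, adjusted p = 0.00056). Leaving out the 2 mice with the most extreme values of the first gene, these r were 0.790, 0.708 and 0.937, and within Control and High-Active mice apart they were 0.657 and 0.910, 0.555 and 0.925, and 0.791 and 0.907. Permutations kept mice in their groups, and p-values were adjusted over the 42 relations computed.

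A ratio of such genes varied less than either gene, which follows from their correlation and similar SDs and is no separate result. The log2 ratio of Chrm4 to Adora2a had a within-group SD of 0.13, where Chrm4 alone had 0.22 and Adora2a 0.20. For Drd1 and Drd2 the SDs were 0.12 for the ratio, 0.23 and 0.21. For Isl1 and Adora2a, with r = 0.12, the ratio varied more than either gene (0.30, against 0.25 and 0.20).

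**Figure D4:**
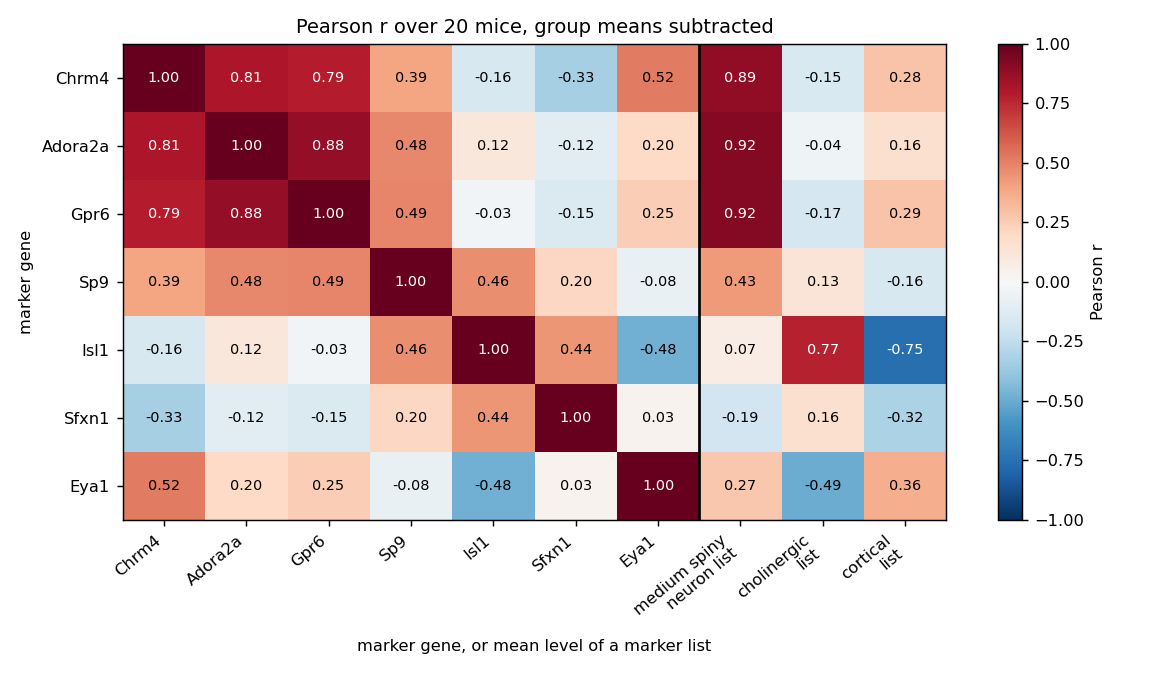
Pearson r over 20 mice after subtraction of group means, between the 7 markers (rows and left columns) and with the mean log2 CPM of 3 marker lists (right columns), red for positive and blue for negative. Chrm4, Adora2a and Gpr6 form a block with r of 0.79 to 0.88, and Isl1 pairs with the cholinergic list (0.77) and opposes the cortical list (-0.75).

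The receptor genes Chrm4, Adora2a and Gpr6 followed the genes that all medium spiny neurons share. A list of 12 such genes, among them Ppp1r1b (DARPP-32) and Adcy5 (the main striatal adenylyl cyclase), had a mean log2 CPM that tracked Chrm4 with r = 0.889 (permutation p = 1e-05, the smallest these permutations can give, adjusted p = 0.00021; rho = 0.901, permutation p = 4e-05, adjusted p = 0.00056), Adora2a with r = 0.917 (permutation p = 1e-05, adjusted p = 0.00021; rho = 0.880, permutation p = 0.00013, adjusted p = 0.00134) and Gpr6 with r = 0.917 (permutation p = 3e-05, adjusted p = 0.00042; rho = 0.919, permutation p = 2e-05, adjusted p = 0.00056). Leaving out 2 mice in the same way, r was 0.862, 0.884 and 0.925. For the other 4 members r ran from -0.191 (Sfxn1) to 0.428 (Sp9), none with an adjusted p below 0.1. The summed level of the list had medians of 8090, 9090, 9030 and 7540 CPM in the 4 groups (Control mice first, saline before amphetamine), with ranges that overlapped. In whole tissue, fewer cells of a type and less RNA per cell cannot be told apart.

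Of the 12 shared genes all had a line difference below 0 (median -0.15) and 1 passed, Rasgrp2 (-0.30, SE 0.086, adjusted p = 0.0414 by edgeR), a striatum-enriched exchange factor for Rap. Of all genes 14.5% passed for line. With the mean of this list as a covariate, the line difference of Adora2a was 0.030 in place of -0.12, and that of Chrm4 -0.015 in place of -0.18. Gpr6 moved away from 0, to 0.11 in place of -0.030 (adjusted p = 0.123 by edgeR), and so did Sp9, to 0.11 in place of 0.055. Isl1 had 0.22 in place of 0.21, Sfxn1 -0.058 in place of -0.039 and Eya1 0.027 in place of -0.028. None of them was past the threshold.

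Isl1 did not follow the medium spiny neuron list (r = 0.0735, adjusted p = 0.842) or Chrm4 (r = -0.159, adjusted p = 0.672, both by permutation). It followed 3 cholinergic interneuron genes, Chat (choline acetyltransferase), Slc5a7 (choline transporter) and Lhx8 (a LIM homeodomain factor), whose mean gave r = 0.771 (permutation p = 0.00029, adjusted p = 0.00186) and rho = 0.783 (permutation p = 0.00032, adjusted p = 0.00224). With 8 cortical excitatory neuron genes r was -0.753 (permutation p = 6e-05, adjusted p = 0.000504) and rho -0.768 (permutation p = 0.00016, adjusted p = 0.00134). Leaving out 2 mice in the same way, these r were 0.746 and -0.771, and r with the cholinergic list was 0.702 in Control and 0.842 in High-Active mice. After the cortical level was regressed out, r between Isl1 and the cholinergic list was 0.359.

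The cortical and cholinergic lists were also compared between the groups. The cortical list summed to 267 to 793 CPM (median 413) in Control saline, 575 to 804 (671) in Control amphetamine, 136 to 318 (153) in High-Active saline and 187 to 925 (523) in High-Active amphetamine mice, with 0 of its 8 genes at 0 in any mouse. All 8 were above 0 for amphetamine (median log2 0.99, 0 called, 8 at an unadjusted p below 0.05) and below 0 for line (median -0.74, 3 called, where 14.5% of all genes were), led by Neurod2 (-0.91, adjusted p = 0.057 by edgeR). The cholinergic list summed to 57.4 to 94.7 CPM (median 70.3), 63.2 to 79.6 (71.2), 66.9 to 119 (95.2) and 61.0 to 91.4 (71.2) in the same order of groups, with 0 of 3 genes at 0. Its 3 genes were below 0 for amphetamine (-0.35 to -0.13, 1 at an unadjusted p below 0.05) and above 0 for line (0.13 to 0.28), with 0 called in either.

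With the cortical list as a covariate the Isl1 amphetamine difference was -0.11 (adjusted p = 0.943 by edgeR) and its line difference -0.0063 (adjusted p = 0.986). With the cholinergic list as a covariate they were -0.23 (adjusted p = 0.526) and 0.074 (adjusted p = 0.63). With the medium spiny neuron list they were -0.37 and 0.22. What part cortical or cholinergic tissue has in the Isl1 values was not tested beyond these fits.

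**Figure D5:**
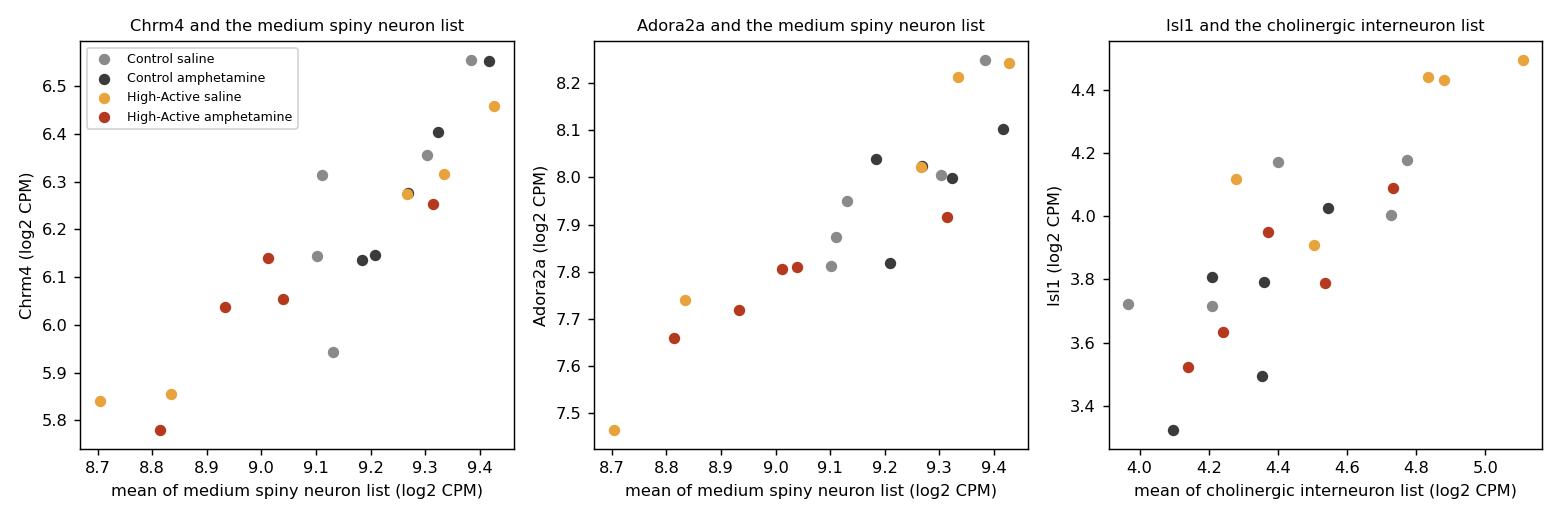
Chrm4 and Adora2a against the mean of 12 genes of all medium spiny neurons, and Isl1 against the mean of 3 cholinergic interneuron genes, all in log2 CPM, with 1 point per mouse coloured by group. The points rise together in each panel, with r after subtraction of group means of 0.889, 0.917 and 0.771.

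Of the remaining lists, thalamus and septum genes were all above 0 for line (5 of 5, median 0.66) with 1 called, Tcf7l2 (1.01, adjusted p = 0.0604 by edgeR), oligodendrocyte genes had 2 of 8 called higher, led by Mobp (0.33, adjusted p = 0.0206), astrocyte genes 2 of 6 higher and 1 lower, led by Aldh1l1 (0.32, adjusted p = 0.012), and microglia genes 2 of 5 lower, led by Aif1 (-0.42, adjusted p = 0.0157). Other interneuron genes (5), choroid plexus genes (4) and Drd3 had 0 called for line, and these lists had 0 called for amphetamine or interaction. Over all genes 14.5% were called for line, so such counts in short lists are not read as a trait of a cell type. Choroid plexus genes ranged most widely, from 20.5 to 898 CPM summed. Their part in the members' values was not tested.

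The genes most like each member, by r of group-centred log2 CPM over 20 mice among 14791 genes, are given as a description. For Adora2a they were Drd2 (0.937), Adcy5 (0.931) and Smpd3 (0.931), for Gpr6 Tbc1d8 (0.928), Rarb (0.924) and Drd2 (0.923), and for Chrm4 Smpd3 (0.925), Kdm4b (0.916) and Cttnbp2 (0.909). Smpd3, a neutral sphingomyelinase gene, was near a marker of each pathway. For Isl1 they were Gad2 (0.838), which makes GABA, Vamp5 (0.834) and Tnrc6a (0.832). Sfxn1 was most like Rab8a (0.859), Dph3 (0.817) and Phb (0.810), Eya1 like Ky (0.805), Lancl1 (0.805) and Colgalt1 (0.775), and Sp9 like the gene ENSMUSG00000090340, with no symbol in the names used (0.869), Smarcd3 (0.853) and Igfbpl1 (0.849). Counted among all genes, Gpr6 was at place 16 for Adora2a and Chrm4 at place 83, whereas Chrm4 stood at place 10566 for Isl1. The within-group SD of the members ran from 0.12 on the log2 scale (Sfxn1) to 0.25 (Isl1), with 0.15 for the median gene tested.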

How the data were processed

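Gene counts of 20 striatal libraries, 1 per mouse, were used. The authors prepared stranded libraries, sequenced them as read pairs, aligned reads with TopHat2 2.0.10 to GRCm38 (Ensembl 75) and counted them per gene with HTSeq 0.6.1. The deposited values are raw counts, and the 5 rows that name no gene (15.97 to 17.49% of reads) were left out. Symbols, gene spans and exon lengths came from GENCODE M21, a later annotation than that of the counting.

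The members and marker lists were chosen with earlier results of these data known. Genes over 1 CPM in at least 3 mice were tested with edgeR 4.0.16 (R 4.3.3), TMM scaling, 1 mean per group and the quasi-likelihood test. P-values were adjusted by Benjamini-Hochberg within each contrast, at a threshold of 0.1, that of the study's methods. Log2 CPM used a prior count of 2. Scripts were tested on simulated data. Alternatives used DESeq2 1.42.0, edgeR's likelihood-ratio test with robust dispersions, limma-voom (limma 3.58.1) with family as a random block, family sums, family as a fixed block, other filters and scalings, a cortical marker covariate, and each mouse left out. Covariates of medium spiny and cholinergic lists, the cortical adjustment of correlations and the 2 mice left out of them were added after seeing the data. Correlations used 100000 permutations within groups (numpy 2.4.6). Named genes were all members, Drd1, Tac1, Pdyn, Drd2 and Penk, at most 2 genes of smallest line p in every other list, and the 3 genes most like each member; Chat, Ppp1r1b and Adcy5 are named as list members only. Intervals bound the estimated mean difference, given the spread between mice, and are not a range that covers the mice. The SEs and intervals of fold changes were worked back from the fold change and its quasi-likelihood test. Replicates are separate mice. Gpr52 and Slc18a3 were not analysed here, and 1 further gene of the cholinergic list is not reported here and was left out of that list.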

Additional observations from a re-analysis of the deposited data

How the results depend on the processing

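The mice of different groups share no replicate number, so the paired analysis of amphetamine used the families with mice under both treatments. Isl1 was -0.38 for amphetamine with family as a fixed block (adjusted p = 0.775 by edgeR), the voom correlation within families was 0.026, and with family as a fixed block or a random block 0 members passed for amphetamine. The count of members passing for amphetamine, 0 of 7, was 1 (Isl1) with the likelihood-ratio test and with DESeq2, and 0 to 1 with single mice left out, 1 without High-Active amphetamine mouse 415. In High-Active mice alone it was 1 with the likelihood-ratio test, for which no count over all genes was taken. The cause was not tested. The Zfp521 difference between lines in saline mice, 0.38, was no longer past the threshold with no filter on low counts (0.37, adjusted p = 0.117), with the cortical (0.22, 0.58), medium spiny neuron (0.37, 0.103) or cholinergic (0.29, 0.297) covariate, or without Control amphetamine mouse 369, Control saline mouse 411, 448, 469 or 883, High-Active saline mouse 483, 499, 871 or 886, or High-Active amphetamine mouse 872 (0.33 to 0.41 over all mice left out). In the other 5 comparisons the count of members was 0 under every alternative run.

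Line differences changed sign with the cortical covariate for Isl1 (-0.0063), Eya1 (0.065) and Gpr6 (0.035), with the medium spiny neuron covariate for Eya1 (0.027), Adora2a (0.030) and Gpr6 (0.11), and with the cholinergic covariate for Eya1 (0.054). The Sfxn1 amphetamine difference changed sign with the cortical (0.045) and cholinergic (0.0091) covariates, and the Chrm4 interaction with the medium spiny neuron covariate (0.030). With single mice left out, the line difference ran from -0.077 to 0.019 for Eya1 and -0.080 to 0.0071 for Gpr6, and the amphetamine difference from -0.041 to 0.018 for Sfxn1, -0.070 to 0.0074 for Chrm4 and -0.076 to 0.0084 for Gpr6. Set against the within-group SD of each alternative, the balance differences moved by less than 1 SD, but small ones changed sign. The High-Active amphetamine difference, 0.050, was 0.17 without Isl1, -0.044 without Eya1, -0.046 with the classical markers and 0.44 with members scaled to their SD (within-group SD 0.72), and that in Control mice, -0.015, was 0.088, -0.11, -0.13 and -0.00040 in the same order and 0.0062 with summed CPM. The line difference, 0.033, was -0.041 without Isl1 and -0.012 without Adora2a. With single mice left out these ran from -0.00011 to 0.096, -0.058 to 0.031 and 0.0096 to 0.058.

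Called genes over all lists for line, 12, were 25 with the likelihood-ratio test, 5 with family sums, 2 with the cortical covariate, 6 with the medium spiny neuron covariate, 5 with the cholinergic covariate and 5 to 18 with single mice left out. For amphetamine, 0, they were 9 with the likelihood-ratio test, 6 with DESeq2 and 0 to 8 with single mice left out. Over all genes the line count, 2149 of 14792 (14.5%), was 609 with family sums, 433 with the cortical covariate, 1084 and 971 with the medium spiny and cholinergic covariates, 1381 without High-Active amphetamine mouse 415, 1405 without High-Active saline mouse 871 and 1400 without Control saline mouse 883. The amphetamine count, 0, was 33 without High-Active saline mouse 197, 128 without Control saline mouse 411, 339 without High-Active amphetamine mouse 415, 3 without Control amphetamine mouse 457 and 20 without Control saline mouse 883, and the interaction count, 0, was 1 without Control saline mouse 411. With counts of 281 to 983 per mouse, Isl1 and Eya1 had the fewest reads of the members.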
